A study of Bos taurus with 6 samples.

Results

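The VEGF and angiopoietin ligands and their receptors were examined in bovine granulosa cells, together with the hypoxia-inducible subunit HIF1A. The genes were VEGFA, VEGFB and VEGFC, the receptors FLT1, KDR and NRP1, the ligands ANGPT1 and ANGPT2, their receptor TEK, and HIF1A. Their probes were found by the gene symbol in the platform annotation, which gave 15 of the 43794 gene probes on the array and 10 of the 15216 genes it names. VEGFA had 2 probes, NRP1 and HIF1A had 3 each, and every other gene had 1. The series holds 6 two-colour arrays of granulosa RNA from dairy cows after calving, and it compares cows given vitamins with cows given saline. Treated cows received folic acid (320 mg) and vitamin B12 (10 mg) into the muscle, and control cows received 0.9% physiological saline. In both groups injections ran from 3 weeks before calving to 57 ± 2 days after it. All cows had a second PGF2 alpha injection 66 ± 2 hours before cells were aspirated from a preovulatory follicle of at least 12 mm, on day 57 ± 3 or otherwise day 71 ± 3. The labels used here name no breed, age or parity. Nothing in them tells if each replicate came from 1 cow or from several, so p-values measure only the spread between these samples.

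VEGF ligands are secreted proteins that bind receptor tyrosine kinases on endothelial cells and make vessels leak and sprout, with neuropilins as co-receptors. ANGPT1 activates the endothelial receptor TEK (also called TIE2) and steadies vessels, whereas ANGPT2 mostly opposes it and loosens them. The granulosa layer has no vessels of its own before ovulation. The theca around it is vascular, and granulosa cells are known to secrete VEGFA. HIF1A is the oxygen-regulated subunit of the transcription factor HIF-1, which acts on VEGFA among other targets and is controlled mainly through the breakdown of its protein.

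Each array carried vitamin RNA in one dye and saline RNA in the other, and a replicate is the mean of a dye-swapped pair, arrays 1 and 2, 3 and 4, or 5 and 6. A log2 ratio is vitamins over saline after background correction and loess, and a level is the log2 intensity of one sample in one channel, comparable between samples for a probe but not between probes. A reading is one probe in one channel of one array, 6 for each group, and it counted as detected when it lay more than 2 SD above the mean of that channel's negative controls. Between 53.1% and 68.7% of gene probes were detected in a channel, and precision is limited by how few arrays there are. The saline RNA of replicate 1 stood apart from the other 5 samples. In it the summed linear level of 18 leukocyte markers was 56659 to 63399 over both readings, against 2706 to 6370 elsewhere, and 16 of the 18 were detected in both readings. The summed level of 12 granulosa markers was 30361 to 51169 there, against 114285 to 251590 elsewhere. CYP19A1, the aromatase that makes estradiol, had a level of 7.40 in that sample and was detected in 1 of its 2 readings. Its level was 10.99 in the vitamin sample of replicate 1 and 13.57 to 15.70 in replicates 2 and 3. That vitamin sample was thus also low for CYP19A1. Its summed granulosa level was 182239 to 185943, but such a sum weighs the brightest probes most. The median level of the 12 granulosa markers was 10.93 in that vitamin sample. It was 9.02 in the saline sample of replicate 1 and 11.49 to 12.34 in the samples of replicates 2 and 3. The leukocyte surface gene CD53 had 14.01 in the saline sample of replicate 1, against 7.56 to 9.61 in the others. The mean of every tested member, and each list's median, is therefore also given without replicate 1. Replicate 1 lay alone on a slide of its own, so slide and replicate 1 cannot be told apart.

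**Figure D1:**
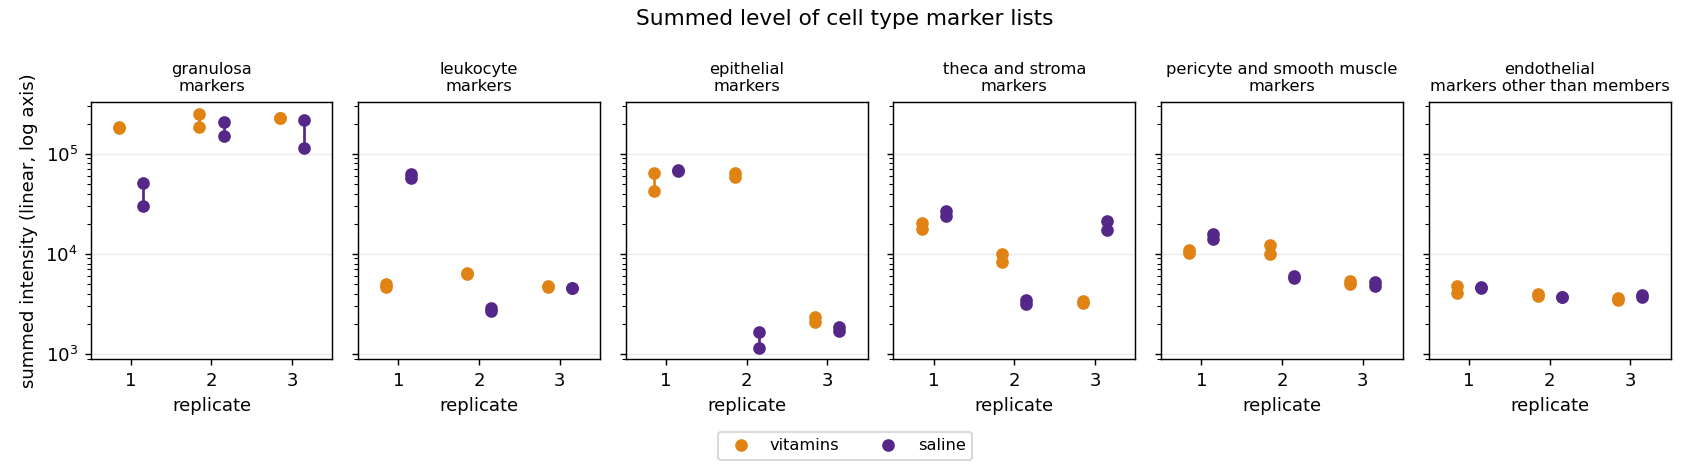
Summed linear levels (log axis) of the marker lists in each of the 6 samples, each point 1 of the 2 readings of a sample, by replicate (x axis). The saline sample of replicate 1 has leukocyte sums of 56659 to 63399 and granulosa sums of 30361 to 51169, apart from the other 5 samples on both lists, while endothelial sums lie between 3469 and 4763 in all of them. Of the 22 endothelial markers, 10 were detected in both readings of that saline sample, against 5 to 8 in the others.

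No member differed between vitamins and saline by the test. Of the 10 genes, 8 had a probe detected in at least 6 of 12 readings and were tested, a filter that 61% of all gene probes passed. FLT1 and KDR were not tested, nor were the VEGFA and NRP1 probes with 3 and 0 detected readings. In limma with Benjamini-Hochberg adjustment over 26713 probes, 0 of the 8 genes passed an adjusted p of 0.05, as did 0% of all tested probes. At an unadjusted p of 0.05 the count was also 0 of 8, against 6.15% of the 10946 tested genes. Adjusted p was 0.9998 for all 8, and no other processing brought any of them under 0.264. The mean log2 ratio was above 0 for 3 genes and below 0 for 5. Its median over the members was -0.12, and over all tested genes 0.01. No member was higher in all 3 replicates (12.7% of all genes were), and 1, TEK, was lower in all 3 (12.4% were). No member had vitamin and saline readings that did not overlap, as 1.32% of genes did. Over replicates the SD of the log2 ratio had a median of 0.738 among the 8 members and of 0.386 among all tested genes.

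**Figure D2:**
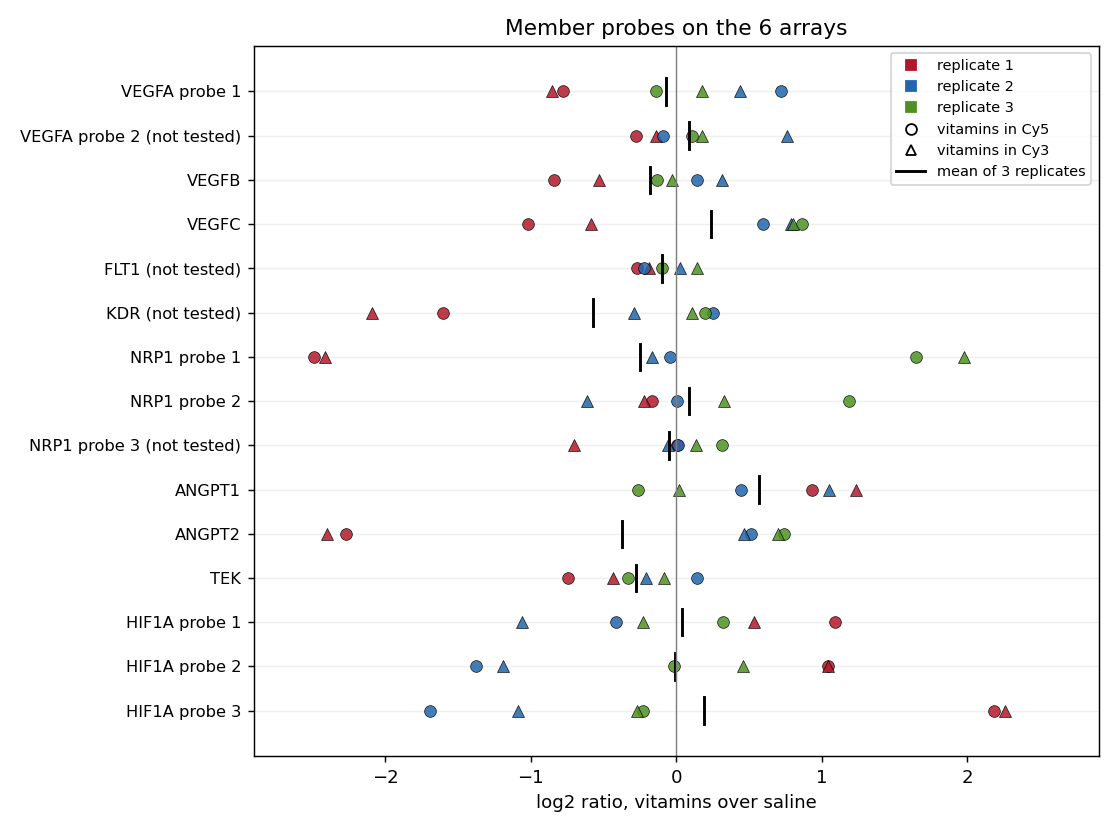
Log2 ratio of vitamins over saline (x axis) of the 15 member probes on each of the 6 arrays, coloured by replicate and shaped by the dye that held the vitamins, with a bar at the mean of the 3 replicates. Replicate 1 lies far to the left for KDR, ANGPT2 and the brightest NRP1 probe (-1.85, -2.33 and -2.45) but near -0.19 for the second NRP1 probe, and arrays of a pair lie up to 0.86 apart on the second probes of NRP1 and VEGFA.

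Among the VEGF ligands, VEGFA, the main driver of vessel growth, was detected in all 12 readings of its brighter probe. Its level under vitamins was 8.50, 9.15 and 7.99 in replicates 1 to 3, and under saline 9.32, 8.58 and 7.97. The saline sample of replicate 1 was the highest of the 6, the vitamin sample of replicate 2 came next, and both samples of replicate 3 were lowest, so the groups overlapped. The log2 ratio was -0.78, -0.85, 0.72, 0.44, -0.14 and 0.18 on arrays 1 to 6. Replicate 1 was thus below 0, replicate 2 above it, and the dyes of replicate 3 fell on either side. The mean was -0.07 ± 0.70 (SD, n = 3 replicates; limma 95% confidence interval -0.91 to 0.77), and without replicate 1 it was 0.30 ± 0.40 (n = 2). The dimmer VEGFA probe was detected in 3 of 12 readings and had ratios of -0.21, 0.33 and 0.14, or 0.24 on average without replicate 1.

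VEGFB, a ligand of FLT1 with a part in lipid handling and heart vessels, was detected in all 12 readings. Its vitamin levels were 10.42, 10.29 and 9.98, and its saline levels 11.10, 10.06 and 10.06. The saline sample of replicate 1 again held the highest level, and the other 5 samples lay within 9.98 to 10.42. The ratios were -0.84, -0.53, 0.14, 0.32, -0.13 and -0.03 on arrays 1 to 6, with a mean of -0.18 ± 0.46 (95% interval -0.80 to 0.45), or 0.08 ± 0.22 without replicate 1. VEGFC, which acts mostly on lymphatic endothelium, had vitamin levels of 8.78, 10.71 and 10.64 and saline levels of 9.58, 10.02 and 9.80. The vitamin samples spread over 1.93 on the log2 scale and lay on both sides of the saline samples, which spread over 0.44. The VEGFC ratio was -1.02 and -0.59 on the arrays of replicate 1 and 0.59, 0.79, 0.86 and 0.80 on the other 4. Its mean was 0.24 ± 0.91 (95% interval -0.80 to 1.28), and without replicate 1 it was 0.76 ± 0.10. The unadjusted limma p was then 0.015 and the adjusted p 0.757 (0.757 to 1 over the processing alternatives). In that fit without replicate 1, 1712 of the 26713 tested probes had an unadjusted p under 0.05.

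Among the members, the VEGF receptor kinases FLT1 and KDR were at or near the background. FLT1, which binds VEGFA tightly and signals weakly, was detected in 0 of 12 readings, as 11% of all gene probes were, with levels of 6.62 to 7.10. KDR, the main signalling receptor of VEGFA on endothelium, was detected in 3 of 12 readings, 1 of them under vitamins, on array 3. The other KDR detections were both readings of the saline sample of replicate 1, at levels of 8.76 and 9.52, whereas each of the other 10 readings lay between 6.89 and 7.43. Its log2 ratio was -1.60 and -2.09 on arrays 1 and 2 and between -0.29 and 0.25 on the rest. KDR was therefore clearly above the negative controls in 1 sample, and its levels elsewhere, FLT1 levels too, say only that it was not well above background.

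NRP1, a co-receptor that presents VEGFA to KDR and also binds class 3 semaphorins, was the receptor with a strong signal, detected in all 12 readings of its brightest probe. Vitamin levels were 10.77, 11.40 and 12.69, and saline levels were 13.22, 11.50 and 10.88. The order of the samples was turned between replicates 1 and 3, with the saline sample highest in one and the vitamin sample in the other. The ratio was -2.49, -2.41, -0.04, -0.16, 1.65 and 1.97 on arrays 1 to 6. Vitamins were thus 5.46-fold below saline in replicate 1 and 3.51-fold above it in replicate 3, with both dye orientations at the same sign. The mean was -0.25 ± 2.13 (95% interval -2.54 to 2.05), an SD larger than that of 98.4% of tested genes, and 0.85 ± 1.35 without replicate 1. The second tested NRP1 probe did not show the fall in replicate 1 at that size, with ratios of -0.19, -0.30 and 0.76 and a mean of 0.09 ± 0.58 (0.23 ± 0.75 without replicate 1), and the third probe was detected in 0 of 12 readings.

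Endothelial markers were measured beside the receptors, since FLT1, KDR and TEK are foremost endothelial genes. Of 22 such markers, PECAM1, CD34 and MMRN1 were detected in no reading, CDH5 in 5 of 12, and 8 were tested. The summed level of the 22 was 3469 to 4763 under vitamins and 3680 to 4661 under saline, and the untested markers add mostly background to it. More of them were detected in both readings of the saline sample of replicate 1 (10 of 22) than of any other sample (5 to 8). In replicate 1 the saline sample was above the vitamin sample for 10 of the 22 and below it for 12, and the 8 tested markers had a median ratio of 0.11. VWF (8.04), EMCN (8.20) and ROBO4 (9.10) were among 6 markers at their highest in that saline sample, whereas CLEC14A had 8.85 there against 9.53 under vitamins. The part of these cells in the KDR and ANGPT2 values was not tested. In RNA of a whole aspirate, fewer cells of a type and less RNA per cell cannot be told apart.

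Of the angiopoietins, ANGPT1, the TEK agonist that perivascular cells make, had the lowest unadjusted p among the members. Its vitamin levels were 8.74, 8.80 and 8.09 and its saline levels 7.66, 8.05 and 8.21, with all 12 readings detected. Vitamin samples lay above their saline partners in replicates 1 and 2, and slightly below in replicate 3. The ratio was 0.94, 1.23, 0.45, 1.05, -0.26 and 0.02 on arrays 1 to 6. Its mean was 0.57 ± 0.62 (95% interval -0.19 to 1.34), with an unadjusted p of 0.109 in the limma fit across all probes, and 0.31 ± 0.62 without replicate 1. With slide as a block the ANGPT1 estimate was 0.70. Replicate 1 is the only pair on its slide, so the error of that fit holds only the difference between replicates 2 and 3. Its p-values therefore do not measure the spread over all replicates. Over the alternatives the adjusted p of ANGPT1 was 0.323 to 1.

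ANGPT2, the antagonist released by endothelium under remodelling, was detected in 6 vitamin and 4 saline readings. Its vitamin levels were 8.55, 8.01 and 8.19, and its saline levels 10.89, 7.52 and 7.47. The saline samples spread over 3.42 on the log2 scale and enclosed all 3 vitamin samples, because the saline sample of replicate 1 lay far above the rest. The ratio was -2.27 and -2.40 on the arrays of replicate 1, and 0.52, 0.46, 0.74 and 0.70 on the other 4. Both arrays of each pair differed by at most 0.13. The mean was -0.37 ± 1.70 (95% interval -2.22 to 1.47), an SD above that of 97.1% of tested genes. Without replicate 1 it was 0.61 ± 0.16, with an unadjusted p of 0.0347 and an adjusted p of 0.757 (0.264 to 1 over the alternatives). In the fit without replicate 1, 1712 of the 26713 tested probes had an unadjusted p under 0.05. With slide as a block the ANGPT2 estimate was -0.86, and the error of that fit again holds only the difference between replicates 2 and 3. On the brightest probe of each gene, ANGPT2 and NRP1 were the 2 tested members whose ratio in replicate 1 reached 2 or more in size on the log2 scale, as 4.07% of genes did.

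TEK, the angiopoietin receptor, was dim, with 5 vitamin and 5 saline readings detected. Vitamin levels were 7.23, 7.55 and 7.46, and saline levels were 7.81, 7.58 and 7.67. Each vitamin sample lay below its saline partner, and the readings of the groups overlapped. The ratio was -0.74, -0.43, 0.14, -0.21, -0.33 and -0.08 on arrays 1 to 6, so 1 array was above 0. The mean was -0.28 ± 0.28 (95% interval -0.77 to 0.21), with an unadjusted p of 0.196 in the limma fit across all probes, and -0.12 ± 0.12 without replicate 1. TEK had the smallest SD of the 8 tested members.

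HIF1A had bright signals on all 3 probes, each detected in all 12 readings and none saturated. On the brightest, vitamin levels were 15.48, 14.96 and 15.41 and saline levels 14.67, 15.69 and 15.36. The saline samples of replicates 1 and 2 were the lowest and the highest of the 6, and the vitamin samples lay between them. The ratio was 1.09, 0.53, -0.41, -1.06, 0.32 and -0.23 on arrays 1 to 6, with a mean of 0.04 ± 0.77 (95% interval -0.87 to 0.95) and -0.34 ± 0.55 without replicate 1. The other probes showed the same order with a wider spread. Their replicate ratios were 1.04, -1.28 and 0.22 on the second and 2.22, -1.39 and -0.25 on the third. Their means were -0.00 ± 1.18 and 0.19 ± 1.84 (-0.53 ± 1.06 and -0.82 ± 0.80 without replicate 1), and the 3 probes had the same sign in replicates 1 and 2.

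**Figure D3:**
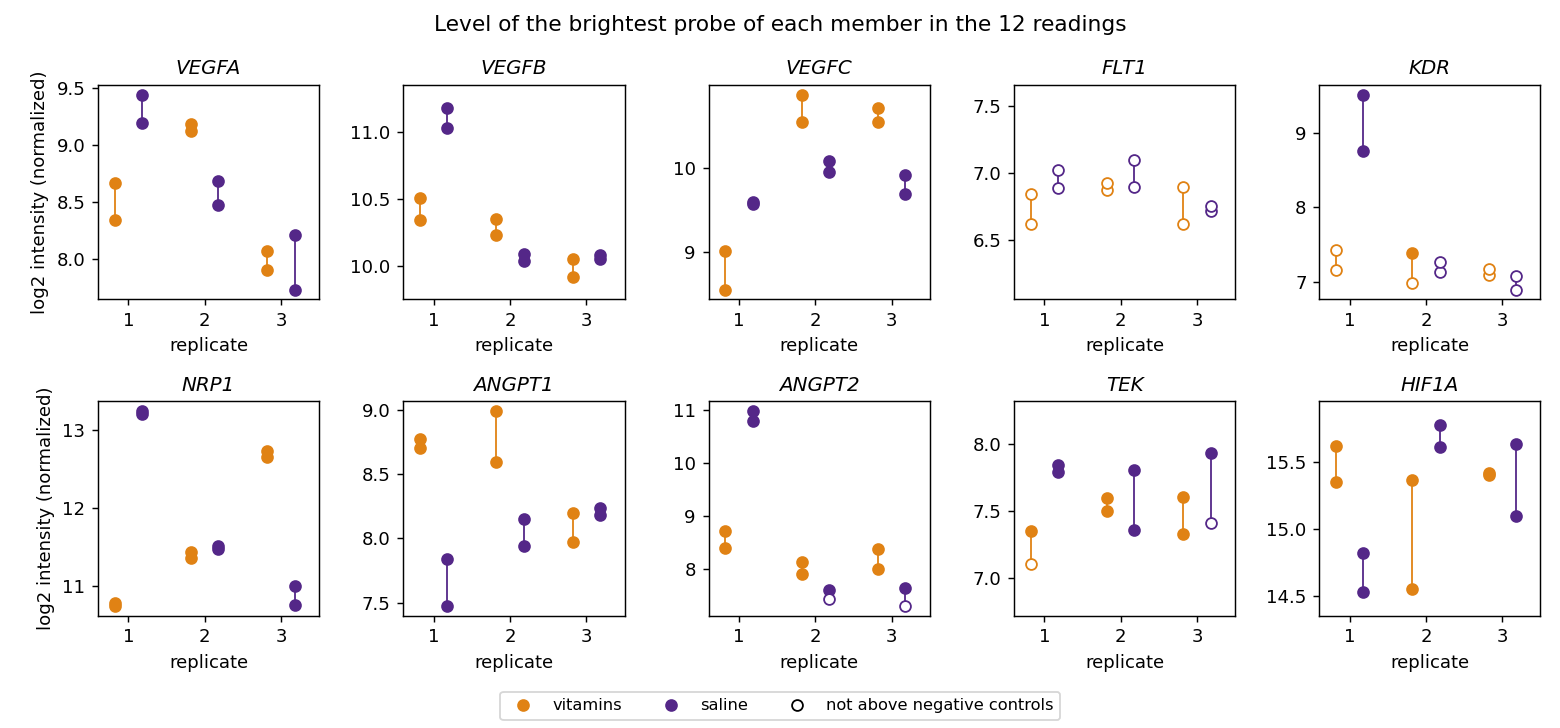
Log2 level (y axis) of the brightest probe of each of the 10 genes by replicate (x axis), a panel per gene with its own y range; points are the 2 readings of a sample, joined by a line, and open points were not above the negative controls. For ANGPT2 and KDR the saline sample of replicate 1 (means of 10.89 and 9.14) lies far above the other 5 samples, and for NRP1 the order of vitamins and saline is turned between replicates 1 and 3.

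The spread between the 3 pairs was set against the spread within them. A limma F test of the pairs over the 6 arrays, with a dye term, was chosen after seeing the data, and its residual holds only the spread between arrays of a pair, so it compares separate samples with technical noise. Under the inferred pairing, which was the one with the closest agreement within pairs, it gave an adjusted p under 0.05 for 7 of the 8 members and for 50.5% of all genes. Under the other pairing of arrays 3 to 6 it gave 0 of 8 members and 0.302% of all genes, so these calls rest on the pairing. Under the inferred pairing the adjusted p was smallest for NRP1 (6.88e-09) and ANGPT2 (6.53e-08), and TEK, at 0.171, did not pass. Replicate 1 was below 0 for 6 of the 8 members, and replicates 2 and 3 were each above 0 for 5. The median member ratio was -0.74, 0.36 and 0.03 in replicates 1 to 3, and over all genes -0.04, 0.01 and 0.02. Without replicate 1, VEGFC and ANGPT2 were above 0 on all 4 remaining arrays, 2 of 8 members against 16% of all genes, and 0 members passed the adjusted test.

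**Figure D4:**
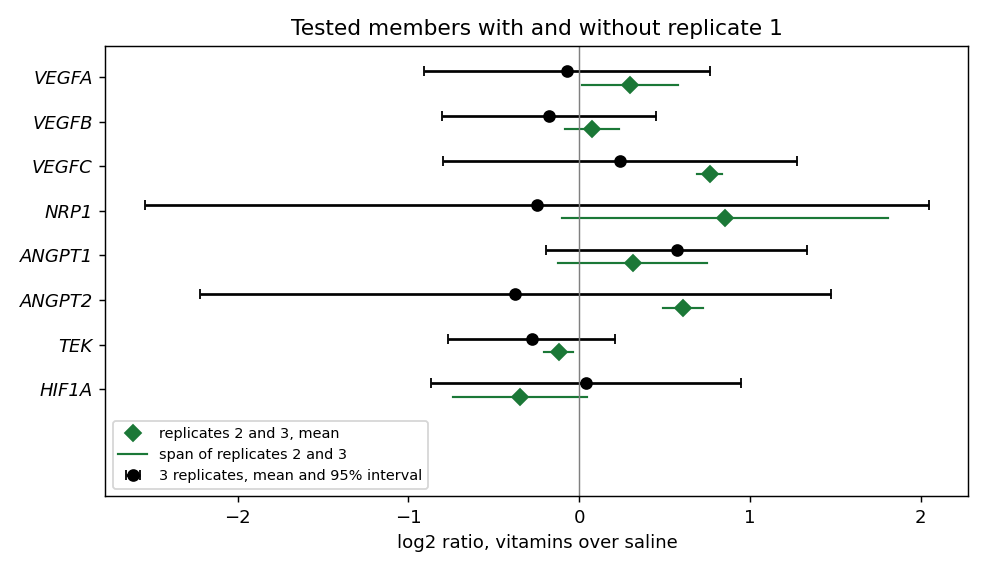
Mean log2 ratio of the 8 tested members (x axis); black points are means of 3 replicates with the limma 95% confidence interval as bars, and green diamonds are means of replicates 2 and 3 with a line from one replicate to the other. All 8 intervals over 3 replicates include 0, and the means of VEGFA, VEGFB, NRP1, ANGPT2 and HIF1A change sign without replicate 1.

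By level over the 6 samples, the genes most like VEGFA among 10945 were EIF2B2 (Pearson r = 0.992), YTHDF2 (0.991), STK38 (0.984), CCDC93 (0.980) and LOC619061 (0.980). EIF2B2 is a subunit of a translation initiation factor, YTHDF2 reads methylated adenosine in mRNA, and STK38 is a kinase. With 6 values, 99 genes had an r above 0.9, and each sample weighs much on a correlation. None of these correlations was computed without replicate 1. Of the members, VEGFB (0.769) and ANGPT2 (0.641) were nearest to VEGFA, while HIF1A ran the other way (-0.731).

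The wider pathway gave no gene past the adjusted test in any list. Of 8 tested further VEGF and angiopoietin family genes, 5 had a mean above 0 and 3 below, and the median was 0.05. PGF, a ligand of FLT1, had a mean of -0.71 ± 0.77, and ANGPT4, another TEK ligand, 0.47 ± 0.55. Without replicate 1 the list's median was 0.00. Of 13 partners and regulators of HIF1A, 4 were above 0 and 9 below, with a median of -0.12. Of the prolyl hydroxylases that mark HIF1A for breakdown, EGLN2 (0.51 ± 0.64) and EGLN3 (-0.90 ± 1.59) had the lowest unadjusted p in that list. Their relative EGLN1, also in the list, had -0.21 ± 0.55. EGLN3 had -2.71 in replicate 1. Without that replicate EGLN3 was at 0.01 and the list's median was -0.08. Of 20 other genes known to be induced by hypoxia, 9 were above 0 and 11 below, with a median of -0.03. In all 3 replicates 1 of the 20 was higher and 4 were lower, against 12.7% and 12.4% of all tested genes. BNIP3, a mitophagy gene, was the only one of the 20 with an unadjusted limma p under 0.05 (0.0273), against 6.15% of all tested genes. BNIP3 had -0.78 ± 0.49, and LDHA, lactate dehydrogenase, had -0.77 ± 0.75. Without replicate 1 the split of this list was 13 above 0 and 7 below, and its median 0.03. BNIP3 was then at -0.55 ± 0.38 and LDHA at -0.77 ± 1.07 (n = 2), with LDHA at -1.52 in replicate 2 and -0.01 in replicate 3.

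Of 22 tested signalling genes downstream of the VEGF and TEK receptors, 9 were above 0 and 13 below, with a median of -0.05. The adaptor NCK1 had -0.78 ± 0.72 and the focal adhesion kinase PTK2 -0.22 ± 0.15. Without replicate 1 the split was 13 above and 9 below, with a median of 0.03. Of 14 other angiogenic ligands and antagonists, 8 were above 0 and 6 below, with a median of 0.04. The growth factor PDGFA had 1.32 ± 1.47 and the Notch ligand JAG1 0.71 ± 1.21, and the list's median was 0.69 in replicate 2 against -0.14 and -0.01 in replicates 1 and 3. Without replicate 1 it was 0.38, with 11 of the 14 above 0, and over all tested genes the median was then 0.03.

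Marker lists of cell types also varied between replicates. The 12 tested leukocyte markers had medians of -3.26, 1.04 and -0.13 in replicates 1 to 3, with 11 means below 0, among them LYZ at -1.54 ± 2.80 and FCER1G at -0.18 ± 0.09. The 11 tested granulosa markers had medians of 0.94, -0.02 and 0.80. In the limma fit 3 of the 11 had an unadjusted p under 0.05, against 6.15% of all tested genes. Among them were AMH at 1.01 ± 0.20 and CYP19A1 at 2.21 ± 1.34 on its brightest probe. The means of the 3 tested CYP19A1 probes ran from 0.10 to 2.21. The 5 tested epithelial markers had medians of -1.14, 4.43 and 0.21. KRT8 had levels of 15.58 to 15.78 in both samples of replicate 1 and the vitamin sample of replicate 2, and of 8.76 to 9.67 in the other 3. KRT18 had ratios of -1.14, 3.82 and 0.16. The 8 endothelial markers had a median of 0.00, with CLEC14A at 0.28 ± 0.34 and ECSCR at -0.17 ± 0.23. Medians were 0.13 for 6 pericyte and smooth muscle markers (CSPG4, 0.18; ACTA2, 0.25), -0.06 for 8 theca and stroma markers (COL1A2, -1.39; INSL3, 0.26) and -0.19 for 4 erythrocyte and platelet markers (HBA, -0.77; HBB, -0.41). The summed level of 8 erythrocyte and platelet markers, tested or not, was 3711 to 3785 in the saline sample of replicate 1, against 1253 to 1752 elsewhere. Without replicate 1 the list medians were 0.22 for leukocyte, 0.39 for granulosa, 2.70 for epithelial, 0.01 for endothelial, 0.37 for pericyte, -0.10 for theca and -0.19 for erythrocyte markers. In replicate 1 the leukocyte markers lay below 0 as did KDR, ANGPT2 and the brightest NRP1 probe, while the second NRP1 probe was at -0.19, and the part of these cells in the member ratios was not tested.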

How the data were processed

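Total RNA of granulosa cells was extracted, amplified over several rounds and labelled with Cy3 and Cy5, per the labels' protocols. Per the file headers, the deposited scanner files give each spot's median intensity and local background intensity in both channels. A deposited table of log2 ratios by the authors was used as an alternative, with no account of its making in the labels. Its columns correlated with the ratios computed here at r = 0.815 to 0.95, all as vitamins over saline, with slopes of 0.633 to 0.973 and medians from -0.018 to 0.015; its background correction and normalization stay unknown.

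With R 4.3.3 and limma 3.58.1, intensities were corrected by normexp (offset 50) and loess within arrays, with control spots at weight 0. Levels came from Aquantile after loess. Detection was judged against 153 negative-control spots, and 26714 probes passed (6 of 12 readings), 1 of them without a value in a replicate. The labels do not pair the dye-swapped arrays. The matching with the highest summed correlation (2.46, against 0.731 for the next) was used, with r = 0.874, 0.863 and 0.722 within pairs. A two-sided moderated test (lmFit, eBayes) set the mean of the 3 pairs against 0. A gene was read from its brightest tested probe. Alternatives changed the normalization, background, filter, pairing, slide, units and replicates. The limma test of vitamins against saline and the F test of the pairs were also run on simulated log2 ratios. The normalization, detection filter and inferred pairing were not simulated.

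Of the probes, 21790 carry 1 symbol, 0 several and 22004 none; 20025 symbols were current in the RefSeq table (ARS-UCD2.0) and 1524 came from older synonyms. The members and gene lists were chosen with earlier results of these data known. Genes named by rule are all members, in each list the 2 genes with the lowest unadjusted p, and the 5 genes whose levels correlate best with VEGFA. Outside this rule, CD53, VWF, EMCN and ROBO4 were picked as examples for their level in the saline sample of replicate 1. PECAM1, CD34, MMRN1 and CDH5 were picked for their detection. EGLN1 was added beside the other prolyl hydroxylases of its list. Lists covered further family genes, HIF1A partners, hypoxia-induced genes, signalling, other angiogenic factors and markers of 7 cell types; EGLN3 and TIE1 each stand in 2. No genome was used, and no coordinates or sequences are given.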

Additional observations from a re-analysis of the deposited data

How the results depend on the processing

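No member passed the adjusted threshold under any alternative, and the mean ratios of ANGPT1 and TEK kept their sign in every alternative that tested them. With the slide of arrays 3 to 6 alone, which is the same as leaving out replicate 1, ANGPT2 was at 0.61, NRP1 at 0.85, VEGFA at 0.30, VEGFB at 0.075 and HIF1A at -0.345, each with the opposite sign. HIF1A was also turned by median centring (-0.091), and VEGFC by slide as a block (-0.02). Leaving out each replicate in turn gave -0.40 to 0.30 for VEGFA, -0.38 to 0.075 for VEGFB, -0.056 to 0.76 for VEGFC, -1.28 to 0.85 for NRP1, 0.31 to 0.92 for ANGPT1, -0.92 to 0.61 for ANGPT2, -0.40 to -0.12 for TEK, -0.345 to 0.43 for HIF1A and -0.35 to 0.31 for the member median.

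The count of members with 1 sign in all replicates (TEK) was 0 under median centring and in the deposited log2 table. It was also 0 with probes detected in all 12 readings, a filter that left TEK out. With the 6 arrays as separate units it was 0, where all 6 arrays have to agree. The count was 4 on the slide of arrays 3 to 6 and 3 to 4 without a replicate, where fewer replicates have to agree. Treating the 6 arrays as separate units, which counts dye swaps as biological replicates, put 278 of all probes past the threshold against 0, no member among them. The count of members whose replicates differed was 7, and 0 with the other pairing of arrays 3 to 6, 3 without replicate 1 and up to 6 without another; these alternatives, and the list medians without replicate 1, were chosen after seeing the data. Every ratio already sets the vitamin and saline RNA of one array against each other. The 3 replicates, amplified RNA and an inferred pairing limit every comparison, and dim probes (TEK, and ANGPT2 under saline) lie near the background.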
